A study of Mus musculus with 24 samples.

Results

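PDGFRα+SCA1+ and PDGFRα+SCA1- mesenchymal cells were compared, both sorted from the same mouse livers, in 3 samples of each population. These are 6 of the 24 samples of the series, chosen by the sorted population that their labels name. All 6 samples come from adult C57BL/6 mice of 12 weeks with no treatment, which were heterozygous for B6.129S4-Pdgfratm11(EGFP)Sor/J, an allele that puts a nuclear GFP (H2BGFP) under the control of the *Pdgfra* gene in place of 1 of its copies. Mice A and E are male and mouse F is female, and each mouse gave 1 sample of either population. Cells of both populations were sorted as H2BGFP+ CD11b- CD45- CD31- and were split by the surface protein SCA1 alone. The PDGFRα+ gate rests on the reporter rather than on the protein. The other populations of the same mice, EpCAM+ ductal cells (DCs) and PDGFRα-SCA1+ stromal cells, entered the model for its estimate of the spread and are mentioned only as a reference.

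The mesenchyme of the liver holds several cell types with PDGFRα. Hepatic stellate cells lie along the sinusoids, store vitamin A and supply growth factors to hepatocytes, whereas portal fibroblasts surround the bile duct and the vessels of the portal tract and lay down elastin and fibrillar collagen. Smooth muscle cells of vessels contract through actin, myosin and calponins, and pericytes share part of that machinery. SCA1, a small protein on a lipid anchor that *Ly6a* encodes, is widely used to sort mesenchymal progenitors and adventitial fibroblasts. The comparison addresses whether the cells with SCA1 carry genes of portal fibroblasts and those without it genes of stellate or muscle cells.

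RNA was read with Smart-seq2, and levels are in TPM, a scale that divides reads by gene length and gives each library the same total, so that genes can be compared with each other. Depth was about 19600000 to 25700000 reads over the 12 samples of the experiment, with 19600000, 20700000 and 23800000 reads for PDGFRα+SCA1+ and 20000000, 24300000 and 22200000 reads for PDGFRα+SCA1- cells (mice A, E and F, as in all lists of values below). At this like depth, the PDGFRα+SCA1- libraries differed from the PDGFRα+SCA1+ libraries. They held 13456, 15945 and 14654 genes above 0, against 17473, 18337 and 17958 in PDGFRα+SCA1+ cells. Spearman correlations between mice over the genes tested below were 0.715 to 0.774, against 0.890 to 0.892. They were 0.833 to 0.842 in PDGFRα-SCA1+ cells and 0.923 to 0.930 in DCs. Of 4530 genes with at least 10 TPM in each of the other 9 samples, 71, 12 and 28 were at 0 in PDGFRα+SCA1- libraries A, E and F, whereas in PDGFRα+SCA1+ libraries 1 of 3906 such genes was at 0. The counts at 0 were 15, 15 and 7 of 4107 in PDGFRα-SCA1+ cells and 23, 17 and 11 of 4191 in DCs. PDGFRα-SCA1+ libraries held 16028, 15662 and 17633 genes above 0. By both measures PDGFRα+SCA1- library E lay within the range of these reference populations, and libraries A and F lay outside it. For a gene at 0 in PDGFRα+SCA1- cells, absence from the cells and loss from the library cannot be told apart.

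The sort was borne out by *Ly6a* (ENSMUSG00000075602.10, chromosome 15 of GRCm38 from 74994877 to 74998031). It had 1396, 892 and 1064 TPM in PDGFRα+SCA1+ cells and 8.82, 29.2 and 19.2 TPM in PDGFRα+SCA1- cells, so that every library fell on the side of its label. This is a 58.5-fold difference in mean level and a log2 fold change of 5.92 on the log2(TPM + 1) scale (SE 0.42, limma adjusted p 9.3e-05). Of the 5 *Ly6* family genes tested, *Ly6a* alone passed the threshold. Another abundant member, *Ly6e*, was at 1599.6, 1210.3 and 1469.6 against 1394, 1069 and 855 TPM, with overlapping samples. *Pdgfra* itself was at 101, 114 and 71.6 TPM and at 71.3, 79.0 and 112 TPM, a log2 difference of 0.13 (95% interval -0.74 to 1.003), and at 0.0349 ± 0.0055 TPM (SD, n = 3) in PDGFRα-SCA1+ cells. Both populations therefore carried RNA of the gene behind the reporter at levels that overlapped.

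Of 16997 genes tested, 146 (0.859%) differed at an adjusted p under 0.05 (limma), with 102 (0.600%) higher and 44 (0.259%) lower in PDGFRα+SCA1+ cells. All log2 fold changes below are PDGFRα+SCA1+ minus PDGFRα+SCA1-. In each of the 146 genes all 3 samples of one population lay above all 3 of the other. Over all genes tested 16.2% had samples that did not overlap, 9.54% higher and 6.61% lower. The median log2 fold change of all genes was 0.13 and fell to 0.01 after quantile normalization, under which 46 genes were higher and 34 lower. That scaling takes the higher genes from 69.9% to 57.5% of those called. The 2 directions differed in how often their genes were at 0 in the other population. Of the 102 higher genes, 45 were at 0 in all 3 PDGFRα+SCA1- libraries, 82 were at 0 in at least 1 of them, and 11 had a mean of at least 10 TPM there. Of the 44 lower genes, 1 was at 0 in all 3 PDGFRα+SCA1+ libraries and 26 had a mean of at least 10 TPM there. As PDGFRα+SCA1- libraries held fewer genes above 0, a difference between the cells and one between the libraries cannot be told apart here.

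**Figure D1:**
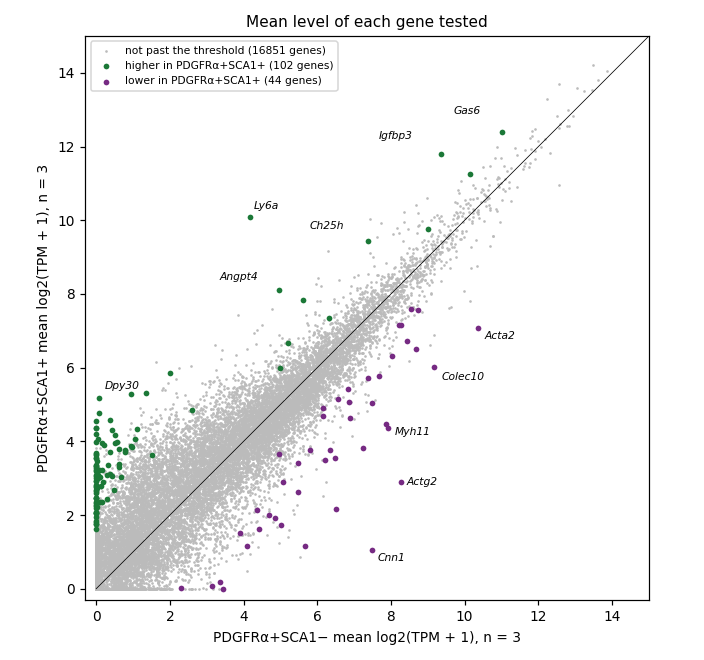
Mean log2(TPM + 1) of each of the 16997 genes tested in PDGFRα+SCA1- cells (x axis) and PDGFRα+SCA1+ cells (y axis), n = 3 mice each, with the diagonal of equal levels and with genes at an adjusted p under 0.05 in colour (limma). The 44 lower genes spread over all levels, whereas 45 of the 102 higher genes sit at 0 on the x axis, and *Gas6* and *Igfbp3* stand out at the top.

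As the same letter is the same mouse, the mouse was also entered as a block. It called 45 genes higher and 24 lower, 44 and 20 of them among those above. The spread between mice differed between the populations, with a median SD of log2(TPM + 1) over genes of 0.78 for the cells without SCA1 against 0.42 for those with it. A fit that weights each population by its own spread called 8 genes higher and 4 lower, all of them among the 146. The fit of the 6 samples alone called 3 genes higher and 4 lower, of which 1 and 4 were among the 146. Most calls given below were thus not made in it. Without PDGFRα+SCA1+ library A, E or F the count fell to 15, 24 or 9 genes, and without PDGFRα+SCA1- library E or F it rose to 528 or 324. Under the 20 other fits run, *Ly6a*, *Actg2* and *Myh11* passed the threshold each time. Among the other genes named here, *Cd9*, *Dpy30* and *Ppp1r14c* kept the call with each of the 6 libraries left out. None of them was called in the fit of the 6 samples alone. For the rest, the text gives the PDGFRα+SCA1+ library without which the adjusted p was highest, and the adjusted p with the mouse as a block where the call was lost.

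Of 18 contractile genes of smooth muscle tested, 5 fell past the threshold in PDGFRα+SCA1+ cells, against 0.259% of all genes, 13 did not pass and none rose, and 14 had all samples below those of PDGFRα+SCA1- cells, against 6.61% of all genes. The median log2 fold change of the list was -1.21, against 0.13 over all genes. The summed level of the list was 2273 to 2438 TPM in PDGFRα+SCA1+ and 5443 to 10024 TPM in PDGFRα+SCA1- libraries. In sorted pools, fewer muscle-like cells and less of this RNA per cell cannot be told apart.

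*Actg2* (ENSMUSG00000059430.14, chromosome 6 from 83512905 to 83536265), the gamma actin of visceral smooth muscle, was at 3.73, 9.29 and 7.64 TPM in PDGFRα+SCA1+ cells and at 227, 255 and 508 TPM in PDGFRα+SCA1- cells. All 3 mice showed a 27.4- to 66.5-fold lower level with SCA1, and the log2 fold change was -5.37 (SE 0.50, limma adjusted p 0.0010). *Actg2* was near 0 in the other populations, with 0.122 ± 0.134 TPM in PDGFRα-SCA1+ cells and 0.149 ± 0.0957 TPM in DCs (SD, n = 3). *Myh11* (ENSMUSG00000018830.10, chromosome 16 from 14194535 to 14291372), the myosin heavy chain of smooth muscle, was at 22.2, 16.3 and 21.0 TPM against 192, 207 and 346 TPM. Its samples were separated by a wide gap, with a log2 fold change of -3.54 (SE 0.38, limma adjusted p 0.0022).

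*Acta2* (ENSMUSG00000035783.9, chromosome 19 from 34241090 to 34255590), which encodes alpha smooth muscle actin, was present in both populations, at 157, 109.9 and 136 TPM with SCA1 and at 1093, 1120.4 and 1821 TPM without it. This 10.01-fold difference in mean level gave a log2 fold change of -3.29 (SE 0.55, limma adjusted p 0.022), and the adjusted p of *Acta2* was 0.093, 0.099 and 0.096 without PDGFRα+SCA1+ library A, E or F. *Cnn1* (ENSMUSG00000001349.5, chromosome 9 from 22099216 to 22109630), the calponin of smooth muscle, was at 0.0664, 0 and 7.23 TPM and at 88.8, 194 and 336 TPM. It had the largest fall of all genes past the threshold, a log2 fold change of -6.45 (SE 1.09, limma adjusted p 0.023). The PDGFRα+SCA1+ value of *Cnn1* rested on mouse F, which gave 138 reads, whereas mice A and E gave 1 and 0, and its adjusted p was 0.11, 0.11 and 0.051 without PDGFRα+SCA1+ library A, E or F.

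*Smtn*, which encodes smoothelin of the contractile filaments, was at 139, 122 and 166 TPM against 324, 252 and 324 TPM, a smaller log2 fold change of -1.07 (SE 0.21, limma adjusted p 0.041, and 0.16 without library E). With the mouse as a block *Smtn* lost the call at an adjusted p of 0.070 and *Csrp1*, a LIM protein of muscle, gained it at 0.046. *Csrp1* was at 760.1, 821 and 725 TPM and at 1508, 1392 and 2517 TPM, with no overlap. The regulatory light chain gene *Myl9* was at 688, 673 and 539.7 TPM against 1106, 1579.9 and 2531 TPM, and the tropomyosin genes *Tpm1* and *Tpm2* had no overlap either, but these 3 genes did not pass the threshold (adjusted p 0.37, 0.28 and 0.46, limma). *Lmod1*, *Synpo2*, *Pln* and *Ppp1r14a* were the 4 list members whose samples overlapped. *Myocd*, the coactivator of muscle genes, was at 9.56, 5.80 and 7.18 TPM against 32.9, 20.9 and 142 TPM (adjusted p 0.13, limma). Its partner *Srf*, the serum response factor, lay the other way, at 24.1, 18.7 and 8.05 TPM against 5.05, 4.25 and 3.41 TPM (adjusted p 0.19, limma). The samples of neither gene overlapped.

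**Figure D2:**
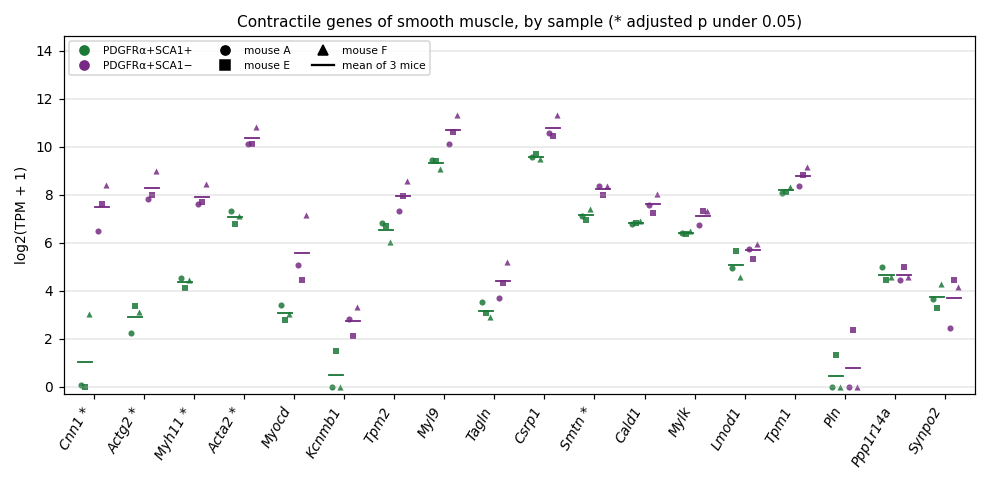
Level of the 18 contractile genes of smooth muscle in each sample, as log2(TPM + 1), with PDGFRα+SCA1+ cells in green, PDGFRα+SCA1- cells in purple, 1 symbol for each mouse and a line at the mean of 3 mice. *Cnn1*, *Actg2*, *Myh11* and *Acta2* show the widest gaps, and the green points of 14 genes lie below all purple ones.

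The promoters of 3 of these genes are printed because serum response factor and myocardin are known to act through the CArG box, CC and GG around 6 bases of A or T. The 250 bases before the start site of RefSeq are given 5′ to 3′ on the strand of the gene (GRCm38.p6), with capitals at each match that has at most 1 other base among the 6. They are chr19:34255374-34255623 (minus strand) for *Acta2*, chr9:22099003-22099252 (plus strand) for *Cnn1* and chr2:156775214-156775463 (plus strand) for *Myl9*. The gene spans given above are from another annotation, GENCODE M21, so that the windows of *Acta2* and *Cnn1* reach into those spans.
Acta2: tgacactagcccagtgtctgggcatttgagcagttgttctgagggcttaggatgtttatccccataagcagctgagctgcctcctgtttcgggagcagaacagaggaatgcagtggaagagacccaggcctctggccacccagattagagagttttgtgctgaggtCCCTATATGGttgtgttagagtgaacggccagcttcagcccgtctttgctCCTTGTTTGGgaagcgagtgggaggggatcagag
Cnn1: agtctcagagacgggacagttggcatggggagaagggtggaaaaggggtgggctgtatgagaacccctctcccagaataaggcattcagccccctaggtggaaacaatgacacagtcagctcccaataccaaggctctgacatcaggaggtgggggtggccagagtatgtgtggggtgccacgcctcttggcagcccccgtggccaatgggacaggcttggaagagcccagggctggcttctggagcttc
Myl9: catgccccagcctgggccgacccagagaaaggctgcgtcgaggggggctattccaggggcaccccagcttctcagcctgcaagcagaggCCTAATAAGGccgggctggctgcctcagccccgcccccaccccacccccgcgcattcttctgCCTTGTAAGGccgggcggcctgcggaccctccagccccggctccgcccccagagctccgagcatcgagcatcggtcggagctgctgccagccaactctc
*Acta2* has matches that begin 84 and 34 bases before the start, each with 1 other base. *Myl9* has a match with A or T throughout at 161 bases and a match with 1 other base at 99 bases. *Cnn1* has none in this window. The motif is its own reverse complement, so that both strands were searched at once. Of 32851 promoter windows of 300 bases, 250 before and 50 after a start, 1.63% hold a match with A or T throughout and 9.98% one with at most 1 other base. Among the 16 windows of the 14 muscle genes found in the RefSeq table, 1 and 2 did. *Ly6a*, *Actg2* and *Myh11* are not among them.

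Of 18 stellate cell genes tested, 2 fell past the threshold in PDGFRα+SCA1+ cells (*Colec10* and *Rgs5*) and none rose. Over all genes tested 0.259% fell. In all, 6 lay below without overlap, 2 lay above and 10 overlapped, against 6.61% below and 9.54% above over all genes, so that the count above is near the background. The median log2 fold change of the list was -0.72. *Colec10* (ENSMUSG00000038591.3, chromosome 15 from 54410774 to 54466358), a collectin that stellate cells secrete, was at 64.0, 79.6 and 50.3 TPM against 987, 629 and 314 TPM. Its log2 fold change was -3.17 (SE 0.54, limma adjusted p 0.023), and the adjusted p was 0.11 without PDGFRα+SCA1+ library F. Its level in PDGFRα-SCA1+ cells and DCs was 2.47 ± 2.18 and 0.616 ± 0.684 TPM (SD, n = 3). *Rgs5*, a regulator of G protein signals in pericytes and stellate cells, was at 93.2, 100.2 and 76.0 TPM against 609.6, 491 and 231 TPM (log2 fold change -2.19, SE 0.39, adjusted p 0.027, 0.12 without library F and 0.058 with the mouse as a block, limma).

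*Ecm1*, a secreted matrix protein of stellate cells, was among the most abundant genes of the list, at 2284, 2169 and 1551 TPM against 9115, 8518 and 2896 TPM. Its adjusted p was 0.092, and 0.045 with the mouse as a block (limma). *Nes*, *Lhx2* and *Sod3* also lay below without overlap, and *Nes*, which encodes the filament nestin, was at 5.44, 7.71 and 7.503 TPM against 47.2, 40.5 and 28.3 TPM (adjusted p 0.082, limma). Above without overlap lay *Ngfr* and *Cygb*. *Ngfr*, the low affinity receptor of neurotrophins, was at 175, 165 and 208 TPM against 46.0, 89.0 and 55.0 TPM (adjusted p 0.20, limma), and *Cygb*, cytoglobin, was at 1460.3, 1401 and 1659 TPM against 991, 889 and 1213 TPM (adjusted p 0.25, limma). The defining genes *Lrat*, which makes retinyl esters, *Des*, desmin, and *Reln*, reelin, overlapped. *Lrat* was at 82.2 to 244 against 149.8 to 349 TPM and *Des* at 179 to 282 against 164 to 189 TPM. *Reln* was at 27.7, 15.5 and 12.9 TPM against 123, 133 and 24.0 TPM (adjusted p 0.23, limma), and *Hhip* overlapped as well. Log2 fold changes were -0.80 for *Lrat*, 0.33 for *Des*, -1.99 for *Reln* and -1.55 for *Hhip*. Of 16 genes of vitamin A handling and retinoid response none passed the threshold, and their median was -0.43.

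Of 16 portal fibroblast genes tested, none rose past the threshold, 1 fell (*Fbln2*), 1 lay above without overlap (*Dpt*) and 4 lay below, with a median log2 fold change of -0.36. Over all genes 0.259% fell past the threshold, 9.54% lay above and 6.61% below. *Fbln2*, fibulin-2 of elastic fibres and basement membranes, was at 32.1, 77.6 and 12.8 TPM against 181, 212 and 144 TPM (log2 fold change -2.43, SE 0.50, adjusted p 0.048, 0.16 without library A and 0.069 with the mouse as a block, limma). The 4 most abundant other members were *Gsn*, *Dpt*, *Mfap4* and *Fbln1*. *Gsn*, gelsolin, was at 16031, 18612 and 16660.1 TPM against 11401, 20363 and 14603 TPM, *Mfap4* at 2813, 2686 and 3589 TPM against 2928, 3565 and 4199 TPM, and *Fbln1* at 1367, 1329 and 928 TPM against 870.1, 1379.8 and 1133 TPM. Samples of these 3 genes overlapped, and their log2 fold changes were 0.18, -0.23 and 0.10. *Dpt*, dermatopontin, was at 3745, 4292 and 4000.0 TPM against 1894, 3546 and 2820.2 TPM (adjusted p 0.83, limma).

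Markers that are widely used for portal fibroblasts overlapped. *Cd34* was at 208, 224 and 137 TPM against 195, 253 and 366 TPM, *Thy1* at 65.9, 53.0 and 41.3 TPM against 17.2, 34.5 and 48.3 TPM, and *Entpd2*, an enzyme that splits extracellular ATP, at 111, 149 and 122 TPM against 137, 182 and 90.5 TPM. *Gli1*, a transcription factor of the Hedgehog pathway, was at 36.2, 38.4 and 33.4 TPM in PDGFRα+SCA1+ cells and varied from 2.19 to 53.1 TPM in PDGFRα+SCA1- cells. *Eln*, elastin, lay below without overlap, at 74.3, 85.0 and 77.9 TPM against 240.4, 123 and 183 TPM, and did not pass the threshold (log2 fold change -1.14, adjusted p 0.14, limma). As these genes name neither population, both are called by their sort.

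**Figure D3:**
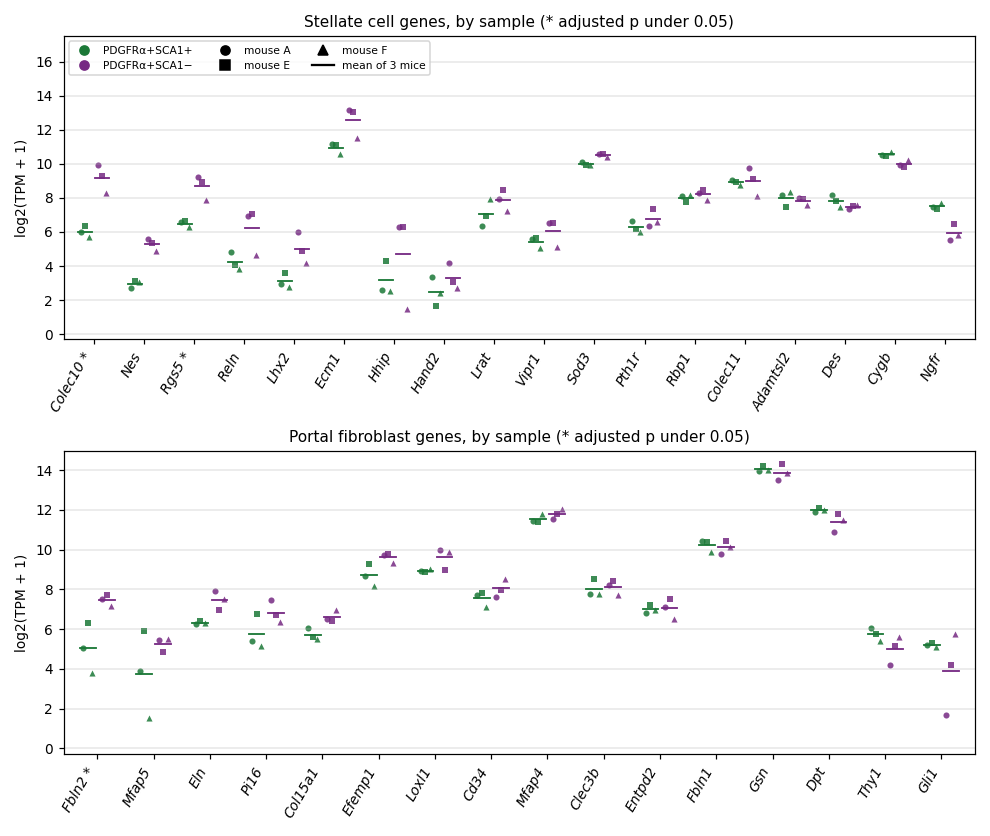
Level of 18 stellate cell genes (top) and 16 portal fibroblast genes (bottom) in each sample, as log2(TPM + 1), drawn as in the plot of the contractile genes, from the lowest log2 fold change on the left to the highest on the right. *Colec10* and *Rgs5* are separated widely at the top left, whereas most portal fibroblast genes overlap and *Fbln2* alone passed the threshold.

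The mural list, of genes of pericytes, the contractile cells of small vessels, gave no call. *Rgs5*, a gene of pericytes as well, passed and was counted in the stellate list above. Of the 11 mural genes tested none passed the threshold, and the median was -0.82. In all, 6 lay below without overlap and none above, against 6.61% and 9.54% of all genes. *Rgs4* was at 22.6, 26.4 and 19.8 TPM against 101, 71.7 and 62.3 TPM, and *Ednra*, the endothelin receptor of contractile cells, at 55.9, 39.9 and 51.6 TPM against 203, 118 and 171 TPM (adjusted p 0.35 and 0.13, limma). The channel genes *Abcc9* and *Kcnj8* overlapped, with 367 to 421 against 370.1 to 537 TPM and 197 to 255 against 90.2 to 242 TPM. Of 10 genes of adventitial fibroblasts 1 passed (*Cd9*), a fall, against 0.259% of all genes. In all, 3 of these 10 lay below without overlap and 1 above. *Cd9*, a tetraspanin, was at 116, 110.1 and 88.2 TPM against 291, 314 and 452 TPM, a log2 fold change of -1.72 (SE 0.20, limma adjusted p 0.0034). *Cd9* kept its call with any library left out, but not in the fit of the 6 samples alone, with or without the mouse as a block. *Il33*, an alarmin of adventitial cells, lay above, at 228, 218 and 279 TPM against 174, 69.2 and 90.7 TPM (adjusted p 0.12, limma), while *Dpp4* did not exceed 14.4 TPM in any sample.

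Of 17 genes of fibrillar and elastic matrix none passed the threshold, 12 overlapped, 4 lay below without overlap and 1 above, and the median was -0.24. Over all genes 6.61% lay below and 9.54% above. *Col1a1* was at 1648, 1622 and 976 TPM against 1731, 1521 and 1616 TPM, *Col3a1* at 1321 to 2379.9 against 1898 to 2452 TPM, and *Dcn*, decorin, at 19616 to 27504 against 23021 to 42557 TPM. *Fbln5* of elastic fibres was the only member above without overlap, at 761, 955 and 717 TPM against 263, 438 and 222 TPM (log2 fold change 1.45, SE 0.35, adjusted p 0.091, limma). In the basement membrane list of 15, *Npnt* alone passed, a fall, against 0.259% of all genes. In all, 4 of these 15 lay below without overlap and 1 above. *Npnt*, nephronectin, a ligand of integrin alpha 8, was at 2.93, 4.87 and 2.88 TPM against 32.7, 117 and 190.4 TPM (log2 fold change -4.35, SE 0.71, adjusted p 0.021, and 0.10 without library A, limma). *Hspg2*, perlecan, was at 29.7, 23.2 and 19.5 TPM against 51.6, 64.1 and 64.2 TPM (adjusted p 0.080, limma).

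**Figure D4:**
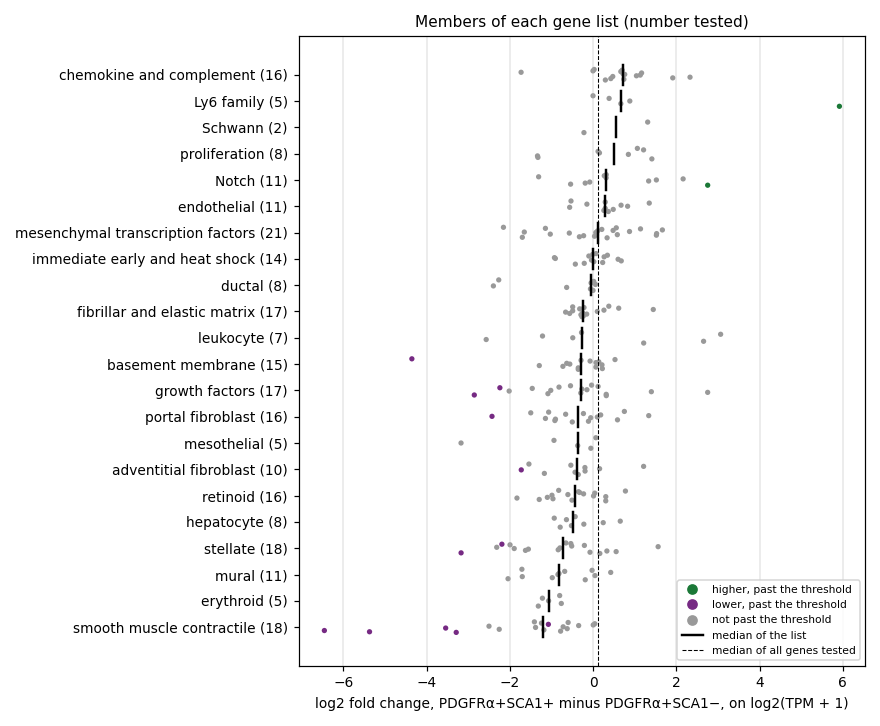
Log2 fold change (PDGFRα+SCA1+ minus PDGFRα+SCA1-, on log2(TPM + 1)) of each gene tested in 22 lists, with the number tested in brackets, genes past the threshold in colour, the median of each list as a bar and the median of all genes tested, 0.13, as a dashed line. The contractile genes of smooth muscle have the lowest median of all lists, -1.21, and the chemokine and complement genes the highest, 0.71.

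No growth factor gene rose past the threshold in the cells with SCA1. Of 17 tested 2 fell, *Rspo3* and *Bmp10*, and neither did with the mouse as a block (adjusted p 0.065 and 0.070, limma). Over all genes 0.259% fell. In all, 3 lay below without overlap and 1 above, against 6.61% and 9.54% of all genes, and the median was -0.29. *Rspo3*, which amplifies Wnt signals, was at 21.8, 32.6 and 19.5 TPM against 214, 113 and 66.7 TPM, with a log2 fold change of -2.24 (SE 0.44, limma adjusted p 0.041, and 0.16 without library A). *Bmp10* was at 10.4, 2.39 and 5.11 TPM against 70.4, 42.8 and 27.4 TPM (log2 fold change -2.85, SE 0.57, adjusted p 0.044, and 0.16 without library E, limma) and was at 0 in all samples of PDGFRα-SCA1+ cells and DCs. Its close relative *Gdf2*, which encodes BMP9, was at 65.9, 28.3 and 29.2 TPM against 278, 213 and 64.5 TPM, with 1 pair of samples overlapping (adjusted p 0.29, limma). Outside the list *Bmp6* fell as well, with 4.30, 3.74 and 2.44 TPM against 21.9, 16.3 and 21.1 TPM (log2 fold change -2.22, adjusted p 0.0095, and 0.054 without library F, limma). *Bmp4* and *Ereg*, an EGF receptor ligand, were the most abundant members, and both overlapped, with 225 to 230.3 against 152 to 243 TPM and 151 to 177 against 144 to 325 TPM. *Fgf10* was the 1 member above without overlap. It had 1.07, 14.1 and 8.84 TPM in PDGFRα+SCA1+ cells and was at 0 in the other 9 samples, at an adjusted p of 0.058 (limma). Its mean was 72.4-fold above a floor of 3 reads in each library, which covers counting error but not loss from the library. *Fgf10* met the minimum level for a test through the PDGFRα+SCA1+ libraries alone.

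Of 11 genes of the Notch pathway, through which touching cells signal, 1 rose in PDGFRα+SCA1+ cells, against 0.600% of all genes, and none did with the mouse as a block. In all, 4 lay above without overlap and 1 below, against 9.54% and 6.61% of all genes. Of those above, *Dll1*, *Hey2* and *Nrarp* were at 0 in at least 1 PDGFRα+SCA1- library, and *Nrarp* did not exceed 0.499 TPM. *Dll1* (ENSMUSG00000014773.13, chromosome 17 from 15367354 to 15376872) was the gene past the threshold, a ligand, with 6.12, 7.62 and 4.01 TPM, from 142, 189 and 118 reads, in PDGFRα+SCA1+ cells and no read in PDGFRα+SCA1- cells. Its mean was 49.1-fold above the floor. Its adjusted p was 0.024, 0.12 without library E and 0.063 with the mouse as a block (limma). *Jag1*, the most abundant ligand, was at 56.9, 44.8 and 50.3 TPM against 3.42, 38.0 and 7.78 TPM, without overlap and with an adjusted p of 0.14 (limma). *Dner*, a transmembrane protein outside the list, chosen after its values were seen, was at 21.5, 9.74 and 5.57 TPM and at 0 in the other 9 samples (adjusted p 0.0064, limma). Its mean was 116-fold above the floor. *Dner* met the minimum level for a test through the PDGFRα+SCA1+ libraries alone. Of the receptors, *Notch1* was at 84.1, 63.3 and 100.3 TPM against 345, 197 and 122 TPM, without overlap (adjusted p 0.13, limma), and *Notch2* overlapped at 23.2 to 31.2 against 15.8 to 30.6 TPM. The target gene *Hes1* was the most abundant of the list and overlapped, at 311, 356 and 395 TPM against 389, 326 and 510.0 TPM. The median of the list was 0.32, and 0.10 after quantile normalization. The value of 0.32 is that of *Jag2*, which did not exceed 0.848 TPM in any of the 6 samples.

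Chemokine and complement genes were the list with the highest median, 0.71, and 0.70 after quantile normalization. None of 16 passed the threshold, whereas 7 lay above without overlap, against 9.54% of all genes, and none below. *Cxcl12*, which retains blood cell progenitors and leukocytes, was at 2401, 2185 and 1890.0 TPM against 1287, 1159 and 587 TPM (adjusted p 0.11, limma). *C4b* of the complement cascade was at 846, 726 and 664 TPM against 189, 224 and 178 TPM, a log2 fold change of 1.91 (SE 0.44, limma adjusted p 0.075). In the fit of the 6 samples alone, which kept 1 of the 102 higher calls of the main fit, *C4b* passed at 0.022. *Ccl11*, a chemokine for eosinophils, was at 169.8, 503 and 351 TPM against 18.9, 147 and 79.5 TPM, and *Ccl7* at 9938, 14541 and 16186 TPM against 4046, 9133 and 5977 TPM (adjusted p 0.27 and 0.35, limma). *Cxcl1*, *Ccl2* and *Il6* were abundant in both populations and overlapped. In each of the 3 mice the median of the list was higher with SCA1, by a log2 fold change of 0.89, 0.58 and 0.76.

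**Figure D5:**
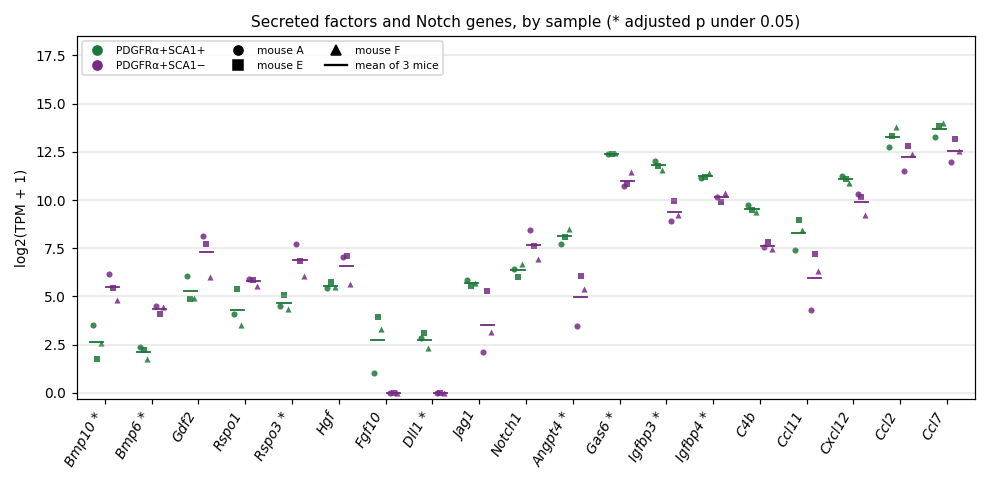
Level of genes of secreted factors and the Notch pathway in each sample, as log2(TPM + 1), drawn as in the plot of the contractile genes. *Bmp10*, *Bmp6* and *Rspo3* are lower, and *Gas6*, *Igfbp3*, *Igfbp4* and *Angpt4* higher, in PDGFRα+SCA1+ cells, where *Dll1* and *Fgf10* were read and PDGFRα+SCA1- cells had none.

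Among genes with a mean of at least 100 TPM in both populations 5 rose and 6 fell past the threshold. Over all genes tested 0.600% rose and 0.259% fell, and the number tested at 100 TPM or more is not given here. Of the 5 that rose 4 are described. *Igfbp3* (ENSMUSG00000020427.11, chromosome 11 from 7206086 to 7213923), a carrier of insulin-like growth factors, rose the most of them, with 4227, 3523 and 3015 TPM against 482, 989 and 598 TPM (log2 fold change 2.43, SE 0.37, adjusted p 0.016, limma). *Igfbp4*, a carrier of the same family, was at 2273, 2317 and 2728 TPM against 1155, 966 and 1297 TPM (log2 fold change 1.10, adjusted p 0.020, limma). *Gas6* (ENSMUSG00000031451.6, chromosome 8 from 13465374 to 13494490), the ligand of TAM receptors that clear dying cells and dampen inflammation, was at 5277, 5378 and 5509 TPM against 1672, 1815 and 2836 TPM (log2 fold change 1.39, SE 0.22, adjusted p 0.019, limma). *Ch25h*, which makes an oxysterol, was at 610.1, 527 and 1063 TPM against 154, 109 and 274 TPM (adjusted p 0.021, limma). These 4 lost their calls whichever PDGFRα+SCA1+ library was left out, with adjusted p-values of 0.059 for *Ch25h* without library E to 0.096 for *Ch25h* and *Igfbp4* without library F (limma). The 6 that fell were *Acta2*, *Smtn* and *Cd9*, given above, and *Cnn3*, *Anxa6* and *Jup*. *Cnn3*, a calponin outside muscle, was at 193, 182 and 205 TPM against 373, 378 and 376 TPM (adjusted p 0.031, 0.13 without library E and 0.062 with the mouse as a block, limma). *Anxa6*, an annexin that binds membranes through calcium, was at 183, 174 and 205 TPM against 343, 431 and 529 TPM (adjusted p 0.030, and 0.13 without library A, limma). *Jup*, plakoglobin of cell junctions, was at 157, 134 and 132 TPM against 414, 233 and 304 TPM (adjusted p 0.043, and 0.15 without library F, limma).

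*Angpt4*, a ligand of the endothelial receptor TIE2, was at 210.1, 275 and 366 TPM against 10.1, 65.1 and 40.2 TPM (log2 fold change 3.16, SE 0.60, adjusted p 0.035, 0.16 without library F and 0.056 with the mouse as a block, limma). It was at 0.113 ± 0.104 TPM in PDGFRα-SCA1+ cells and 0.201 ± 0.134 TPM in DCs (SD, n = 3). *Sfrp1*, a Wnt antagonist, was at 1159.7, 1491 and 971 TPM against 316, 358 and 302 TPM and passed in the fit of the 6 samples alone (adjusted p 0.039), but not over 12 samples (adjusted p 0.057, limma). Its relative *Sfrp2* went the other way and was among the 10 largest falls, with 15.5, 12.3 and 11.9 TPM against 402, 91.2 and 91.3 TPM (log2 fold change -3.41, SE 0.58, adjusted p 0.023, 0.11 without library F and 0.051 with the mouse as a block, limma).

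The 10 largest falls also held *Cnn1*, *Actg2*, *Npnt*, *Myh11*, *Acta2* and *Colec10*, given above, and *Postn* and *Ngef*. *Postn* (ENSMUSG00000027750.16, chromosome 3 from 54361109 to 54391037), periostin, a matrix protein of activated fibroblasts and of valves, was at 24.7, 14.5 and 26.6 TPM against 237, 172 and 315 TPM, and the fold was 9.60 to 11.9 within the mice (log2 fold change -3.40, SE 0.58, adjusted p 0.023, and 0.11 without library E, limma). *Ngef*, an exchange factor of small GTPases, was at 5.12, 2.53 and 0.734 TPM against 21.9, 40.5 and 34.3 TPM. Its adjusted p was 0.021, and 0.084 without library F (limma). A further 3 genes, chosen after their values were seen, passed the threshold. *Hspb6*, a small heat shock protein of smooth muscle, was at 9.17, 18.3 and 6.11 TPM against 43.0, 53.9 and 164 TPM, *Pdlim3*, a LIM protein of the Z disc, at 11.9, 16.7 and 10.2 TPM against 60.8, 70.6 and 120.1 TPM, and *Slmap*, a membrane protein of muscle, at 38.2, 30.6 and 35.8 TPM against 68.8, 110.1 and 111 TPM. Those 3 lost their calls with the mouse as a block (adjusted p 0.081, 0.085 and 0.070, limma) and also with a PDGFRα+SCA1+ library left out, where the adjusted p was at most 0.16 for *Hspb6* and *Pdlim3* without library F and 0.15 for *Slmap* without library E.

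Beside *Ly6a*, the genes of the 10 largest rises described here were at 0 in at least 1 PDGFRα+SCA1- library. *Dpy30*, a subunit of the complexes that methylate histone H3, was at 39.7, 35.6 and 30.2 TPM against 0, 0.155 and 0 TPM, where the value above 0 is 1 read. Its mean was 69.6 ± 26.5 TPM in PDGFRα-SCA1+ cells and 91.9 ± 27.3 TPM in DCs (SD, n = 3), and it kept its call with the mouse as a block (adjusted p 0.00058, limma). *Ppm1f*, a phosphatase, was at 14.7, 17.2 and 14.9 TPM against 0.0757, 0 and 0 TPM, and *Ppp1r14c*, an inhibitor of protein phosphatase 1, at 15.3, 22.9 and 19.0 TPM against 0, 1.44 and 0 TPM. *Tubg2* of the gamma tubulins had 26.4, 7.27 and 16.1 TPM and no read in PDGFRα+SCA1- cells, with a mean 57.3-fold above the floor. *Acsbg1*, which activates fatty acids, was at 52.9, 48.2 and 21.6 TPM against 0, 0.0839 and 5.72 TPM, and the interferon-induced *Ifi205* at 29.8, 47.9 and 41.5 TPM against 1.12, 6.77 and 0 TPM. *Acsbg1*, *Ifi205* and *Tubg2* lost their calls with the mouse as a block (adjusted p 0.067, 0.089 and 0.068, limma). Their highest adjusted p was 0.16 without library A for *Acsbg1* and *Tubg2* and 0.15 without library E for *Ifi205*, and that of *Ppm1f* was 0.066 without library A (limma). *Snord53* and *Snord70* rest on 4 to 16 and 6 to 12 reads a library and lie inside other genes, so that both are uncertain. *Snord53* lost its call without library A (adjusted p 0.088) and *Snord70* without library E (adjusted p 0.15) and with the mouse as a block (adjusted p 0.070, limma).

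Of 21 transcription factors of mesenchyme tested none passed the threshold, 3 lay above and 3 below without overlap, and the median was 0.11. Over all genes 9.54% lay above and 6.61% below, so that these counts are near the background. *Tcf21* was the most abundant, at 1021, 904 and 1116 TPM against 329, 675 and 432 TPM, followed by *Klf4* at 533, 516 and 419 TPM against 290.3, 370.3 and 317 TPM (adjusted p 0.42 and 0.36, limma). Both lay above without overlap. *Foxf1* was at 207, 236 and 239 TPM against 279.8, 255 and 324 TPM, and *Wt1* at 15.7, 17.4 and 6.06 TPM against 77.9, 44.1 and 52.5 TPM (adjusted p 0.84 and 0.13, limma). Outside the list, the homeodomain gene *Isl1* rose. *Isl1* (ENSMUSG00000042258.13, chromosome 13 from 116298281 to 116309689) had 7.80, 10.1 and 7.02 TPM, from 170, 234 and 194 reads, and was at 0 in the other 9 samples (adjusted p 0.0022, limma). Its mean was 64.6-fold above the floor of 3 reads in PDGFRα+SCA1- cells. *Isl1* kept its call with the mouse as a block (adjusted p 0.014, limma) but not in the fit of the 6 samples alone. *Isl1* and *Dner* reached 1 TPM in the 3 PDGFRα+SCA1+ libraries alone, so that they met the minimum level for a test only through the population where they are high. Without a PDGFRα+SCA1+ library they were not tested. Their 9 values of 0 entered the spread, so that their adjusted p-values are no independent support for the rise.

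Markers of other cell types were summed in each library. Of the 11 endothelial genes none passed, and their sum was 16.6 to 67.2 TPM with SCA1 and 25.8 to 56.2 TPM without it, and *Cdh5* did not exceed 1.50 TPM. The 8 hepatocyte genes summed to 1018 to 3099 against 1118 to 1941 TPM. The sum of the 8 ductal genes was 110.2 to 123 against 157 to 423 TPM, led by *Sox9* and *Spp1*, and *Spp1* was at 18.7, 29.5 and 61.7 TPM against 78.0, 329 and 160.1 TPM. *Epcam* did not exceed 11.6 TPM, and *Krt7* and *Cftr* were at or near 0. The 8 leukocyte genes summed to 188 to 333 against 98.4 to 159 TPM, led by *Cd74* and *Lyz2* in the PDGFRα+SCA1+ libraries. In PDGFRα+SCA1- library A *Clec4f*, another member, led at 87.8 TPM. *Ptprc*, which encodes CD45, did not exceed 2.13 TPM. Globin genes and *Alas2* summed to 752 to 2872 against 1235 to 5456 TPM, and *Alas2*, the erythroid enzyme of heme synthesis, lay below without overlap, at 23.0, 17.8 and 19.3 TPM against 55.7, 44.9 and 53.2 TPM. Mesothelial genes were highest in PDGFRα+SCA1- library A, at 154 TPM in sum, against 0.0529 to 25.3 TPM in PDGFRα+SCA1+ libraries. *Sox10*, which marks Schwann cells, was at 0 in all 6 libraries. The part of the ductal, leukocyte and erythroid RNA in the differences above was not tested.

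Genes that respond to cell isolation and to division gave no call. The 14 immediate early and heat shock genes had a median log2 fold change of 0.01 and none passed the threshold. *Fos* was at 6882, 5603 and 5205 TPM against 7359, 4769.5 and 6182 TPM. *Hspa1a*, an inducible chaperone, was at 638, 767 and 475 TPM against 1335, 1352 and 847 TPM and passed only with the mouse as a block (adjusted p 0.16 without it and 0.038 with it, limma). Of 8 genes of proliferation tested none passed, and *Mki67* did not exceed 0.325 TPM.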

How the data were processed

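The authors sorted cells from 3 mice, made Smart-seq2 libraries with NexteraXT tagmentation and read them in single-read mode. Per the labels and the methods, the authors aligned reads to GRCm38 with STAR 2.5.0a, filtered them with SAMtools and counted those on exons with featureCounts. What the authors deposited for the homeostasis experiment is a length-scaled expression signal that they name TPM. The totals that these deposited values were divided by run through the 12 samples down the table, so the columns sum to between 847270 and 1173511. The division was undone and TPM was rebuilt. After this 92.8% of low values (up to 20 reads) were within 0.02 of a whole read, against 10.4% as deposited. Columns with the authors' means of a population were not used.

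Depth and read numbers came from low values and exon lengths of GENCODE M21. A floor of 3 reads covers counting error alone, because PCR copies were not marked by identifiers. A fold against this floor is no minimum where RNA was lost from a library. Genes with at least 1 TPM in at least 3 samples were fitted on log2(TPM + 1) with limma 3.58.1 in R 4.3.3, as 1 mean per population over the 12 homeostasis samples, with eBayes and a trend. Tests were two-sided, with Benjamini-Hochberg adjustment over all genes and a threshold of 0.05, since the study names no test for its RNA-seq. Fold changes on this scale understate those of low genes. Same-letter samples come from the same mouse, and their residuals correlated at 0.0371 to 0.0579. Lists have no test. In 1 simulated data set with known changes and the unequal spread of the populations the fit missed most of them, and more of its calls were wrong than the threshold allows, so that the calls may not hold the stated error rate. Python 3.11.15 was used with numpy 2.4.6, pandas 2.3.3 and matplotlib 3.10.9. Promoters are from RefSeq on GRCm38.p6. Older symbols were used for 3 genes of the lists, as in the table.

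The comparison, gene lists and rules were chosen with earlier results of these data known. Named were *Ly6a*, *Actg2* and *Cnn1*, list members past the threshold with up to 4 others of the highest mean TPM, and the 10 largest rises and falls past the threshold without overlap, without the symbols of unnamed gene models (Gm with a digit, Rik). Some genes that meet this rule are not reported here. Other genes named, such as list members without overlap, genes of at least 100 TPM, *Bmp6*, *Dner*, *Angpt4*, *Sfrp1*, *Hspb6*, *Pdlim3*, *Slmap* and *Isl1*, were chosen after their values were seen. Alternatives were the deposited values, other pseudocounts and filters, quantile normalization, no trend, fewer samples, the mouse as a block, weights per population and leaving out each library or mouse. The transwell experiment, normalized separately and deposited as RPKM by the authors, entered no test.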

Additional observations from a re-analysis of the deposited data

How the results depend on the processing

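The count of 146 genes depended on several choices. It was 80 after quantile normalization (46 higher, 34 lower), 31 over the 9 stromal samples (23 and 8), 7 in the fit of the 6 samples alone (3 and 4) and 12 with weights per population (8 and 4), a setting chosen after the data were seen. With the mouse as a replicate block it was 69 over 12 samples (45 and 24) and 14 over the 6 samples (8 and 6). A pseudocount of 0.1 gave 168 higher genes, and the deposited values gave 26 lower genes, all of them among the 44. When a library or a mouse was left out, the count ran from 9 to 528, the higher genes from 6 to 398 and the lower genes from 3 to 130, and without mouse A, E or F it was 27, 134 or 92. The cause was not tested. The medians of the smooth muscle, stellate and portal fibroblast lists stayed below 0 under each alternative run for them. Beyond the genes given above, the block changed no call of a named gene. Some genes that did not pass the threshold changed direction. After quantile normalization the log2 fold change was -0.18 for *Gsn*, -0.043 for *Fbln1*, 0.10 for *Entpd2*, -0.041 for *Synpo2*, -0.16 for *Dpp4*, -0.37 for *Cdh5* and -0.12 for *Mki67*, and with the deposited values it was 0.0014 for *Fos* and 0.0023 for *Cftr*. With a library or a mouse left out it ran from -0.015 to 0.40 for *Gsn*, -0.17 to 0.30 for *Fbln1*, -0.40 to 0.013 for *Col1a1*, -0.59 to 0.11 for *Ereg*, -0.43 to 0.37 for *Sox9*, -0.20 to 0.11 for *Fos*, -0.32 to 0.18 for *Entpd2* and -0.57 to 0.65 for *Synpo2*. It ran from -0.27 to 0.27 for *Ppp1r14a*, -1.13 to 0.96 for *Dpp4*, -0.065 to 0.60 for *Notch2*, -0.084 to 0.63 for *Cdh5*, -1.39 to 0.47 for *Epcam*, -0.014 to 0.013 for *Cftr* and -0.071 to 0.52 for *Pdgfra*. Of 4530 genes with at least 10 TPM in each of the other 9 samples, 102 were at 0 in at least 1 of the PDGFRα+SCA1- libraries, most of them in library A, which limits what a value of 0 there can show.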

Other observations

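A further 2 libraries, of mesenchymal cells with SCA1 sorted from wild type mice at day 0 of the transwell experiment and normalized in a separate table, entered no comparison. Per the methods they were gated on SCA1 and not on PDGFRα. The RPKM values were rescaled to TPM. *Ly6a* was at 722 and 846 TPM and *Pdgfra* at 123 and 81.2 TPM. *Actg2* was at 65.2 and 70.6 TPM, *Cnn1* at 18.1 and 40.7 TPM, *Myh11* at 53.1 and 65.6 TPM and *Acta2* at 430.3 and 601 TPM. These 4 genes were at levels between those of the 2 populations above, with no test across the separately normalized tables. *Colec10* was at 109 and 95.5 TPM, *Postn* at 151 and 123 TPM, *Igfbp3* at 1743 and 1831 TPM and *Dll1* at 12.8 and 20.5 TPM. *Fbln2* was at 68.2 and 244 TPM, and the second value lies above all 3 PDGFRα+SCA1- libraries.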
